A study of Mus musculus with 6 samples.

Results

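The urokinase receptor gene Plaur and 4 other genes of the plasminogen activation system, Plau, Plat, Serpine2 and Serpinb2, were read in RNA sequencing libraries of TuBo cells. They were taken by gene symbol from the deposited table, where 5 of the 21960 genes match. The set was selected on the level of Plaur, which was already known to be lower in p140Cap than in mock cells, so the values of Plaur are a description and carry no test. Serpinb2 had too few reads for a test, and the other 4 genes were among the 11800 that could be tested.

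TuBo, labelled Balb-NeuT, is a mouse line that was grown from a breast tumor arising in a BALB/c-MMTV-NeuT animal, where the viral MMTV promoter drives an activated rat neu oncogene. The 3 mock libraries come from cells with the genotype label wt. The 3 p140Cap libraries come from cells transduced with a pBabe-puro retrovirus carrying p140Cap cDNA, selected with puromycin, grown from single cells and, by the study's methods, pooled from several positive clones. Both groups derive from the TuBo line, and what mock cells received is not stated in the sources used here. The labels speak of mice in one place and of cell lines in another, and the samples were taken here as cultures of this line. Nothing says that replicates came from separate cultures, so the p-values measure only the spread between these libraries, which may be technical.

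Plasminogen is a circulating zymogen that is cut to plasmin, a broad protease that dissolves fibrin and clears matrix, by either of its activators. The urokinase-type activator (uPA, encoded by Plau) works mostly at cell surfaces, where it is held by its receptor uPAR (Plaur), a protein anchored to the membrane by a glycolipid, while the tissue-type activator (tPA, Plat) acts best on fibrin. Serpins trap the activators in inactive complexes. PAI-2 (Serpinb2) inhibits both activators, and protease nexin-1 (Serpine2) inhibits thrombin as well as the activators. In mammary tumors uPA and uPAR are known for their link with invasion.

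Total reads on genes were between 33058719 and 75506562 in the mock libraries and between 13770385 and 15364850 in the p140Cap libraries, so that rare transcripts were measured less precisely in p140Cap cells. Srcin1, which encodes p140Cap, was at 14.98 CPM in mock and 2343 CPM in p140Cap cells on average, so the labels match the transduced gene, where CPM are reads scaled to the library size after adjustment with TMM factors. All 5 epithelial markers (Krt8, Krt18, Epcam, Cdh1 and Erbb2) were abundant, summing to 5250 to 5570 CPM in mock and 6180 to 6340 CPM in p140Cap libraries. Of 8 macrophage and neutrophil markers, 2 were tested and both rose, as did 35.2% of all 11800 genes tested, Ptprc, Adgre1, Lyz2 and Csf3r were at 0 reads in all libraries, and the summed level was 99.8 to 107 CPM in mock and 246 to 257 CPM in p140Cap libraries. Most of that sum was Cd14, with a mean of 101.2 CPM in mock and 247.3 CPM in p140Cap cells. Of 7 fibroblast markers 4 were at 0 reads in all libraries, Col1a2, Col3a1, Dcn and Lum, and the sum was 9.97 to 10.5 CPM in mock and 11.3 to 14.1 CPM in p140Cap libraries. The 5 endothelial markers summed to 0.21 to 0.478 CPM in mock and 0.477 to 0.734 CPM in p140Cap libraries, and Kdr and Cldn5 were at 0 reads. The part of these differences in the results was not tested.

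Sequences before a start site of the receptor gene and of the silent inhibitor gene are shown because they differ in base composition and carry related letters for AP-1, a dimer of Jun and Fos proteins known to act at the Plaur and Plau promoters. They are taken from RefSeq for GRCm38.p6 (mm10), the build named in the submitters' processing notes. The table of promoters matched 3 of the 5 genes, Plaur, Serpine2 and Serpinb2. Each is printed 5′ to 3′ on the plus strand, from base -250 to base -51 relative to an annotated start site, at chr7:24462233-24462432 for Plaur and at chr1:107511173-107511372 for Serpinb2. Both windows lie within the gene spans given with the values, downstream of their first base, so RefSeq also places a start of each gene further upstream, whose window is not used here. Capitals mark TGANTCA, the AP-1 letters, and GGGCGG, the GC box bound by Sp1.

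Plaur: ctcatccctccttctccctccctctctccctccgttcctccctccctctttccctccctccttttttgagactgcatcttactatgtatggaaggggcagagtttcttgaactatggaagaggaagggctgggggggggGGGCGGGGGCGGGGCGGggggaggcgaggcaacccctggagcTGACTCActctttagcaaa
Serpinb2: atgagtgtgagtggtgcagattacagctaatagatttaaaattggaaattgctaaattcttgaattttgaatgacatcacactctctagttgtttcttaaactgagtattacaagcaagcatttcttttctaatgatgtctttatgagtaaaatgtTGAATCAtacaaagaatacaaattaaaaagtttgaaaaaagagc

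The Plaur window held the AP-1 letters once, from base -69 to base -63 counted from the start site, and 3 GC boxes between bases -111 and -95, the last 2 of which share 1 base. The Serpinb2 window held the AP-1 letters once, from base -94 to base -88, and no GC box. Serpine2 had 6 GC boxes and no AP-1 letters in its own 250 bases. Both strands were searched. Of 32851 RefSeq windows of the same length, 6.75% held the AP-1 letters and 32.74% a GC box. The GC content over 250 bases was 59.6% for Plaur, 32.4% for Serpinb2 and 78.8% for Serpine2, with a median of 52.4% over all windows. RefSeq gives Serpinb2 another start site, whose window overlaps the printed one, has a GC content of 38.4% and holds the AP-1 letters once, from base -181 to base -175 counted from that site. The TCF/LEF letters TCAAAG were in none of the windows of these 3 genes and in 13.83% of all windows, and the ETS letters CCGGAAG were in none of the 3 and in 6.91% of all. A match of letters is a description and not a binding site.

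Plaur (ENSMUSG00000046223) codes for protein and occupies chromosome 7 of GRCm38.p6 from 24460937 to 24475970 on the plus strand. Its reads numbered 1453, 802 and 655 in mock and 106, 86 and 101 in p140Cap libraries. After normalization this was 18.99, 20.16 and 19.67 CPM in mock cells and 6.99, 5.86 and 7.42 CPM in p140Cap cells. All 3 p140Cap libraries were below all 3 mock libraries, and p140Cap replicate 2 was the lowest. The mean was 19.6 ± 0.592 CPM (SD, n = 3) in mock and 6.75 ± 0.806 CPM (SD, n = 3) in p140Cap cells, or -1.54 (SE 0.09) as a log2 fold change. In bulk RNA, fewer cells carrying a transcript and less of it in each cell cannot be told apart.

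Plau (ENSMUSG00000021822), the gene of the receptor's ligand uPA, lies on chromosome 14, from 20836662 to 20843388 on the plus strand. It had 734, 359 and 319 reads in mock and 76, 88 and 66 reads in p140Cap libraries, or 9.59, 9.03 and 9.58 CPM against 5.01, 5.99 and 4.85 CPM. The p140Cap libraries were again all below the mock libraries. Its level fell from 9.40 ± 0.323 CPM to 5.28 ± 0.621 CPM (SD, n = 3 libraries each), at a log2 fold change of -0.83 (SE 0.11, edgeR adjusted p = 2.28e-06 over all genes tested). Calls of this kind were common, since 71.1% of all tested genes had an adjusted p under 0.05, 35.9% as lower and 35.2% as higher in p140Cap cells.

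Plat (ENSMUSG00000031538), which encodes tPA, moved the other way. It lies on chromosome 8, from 22757722 to 22782848 on the plus strand, and had 95, 45 and 29 reads in the mock and 57, 40 and 38 reads in the p140Cap libraries. These raw counts overlap, and the mock libraries were deeper. Relative to library size Plat was at 1.24, 1.13 and 0.871 CPM in mock and 3.76, 2.72 and 2.79 CPM in p140Cap cells, and the groups did not overlap. It rose from 1.08 ± 0.19 CPM to 3.09 ± 0.578 CPM (SD, n = 3 libraries each), and its log2 fold change was 1.47 (SE 0.20, edgeR adjusted p = 4.35e-06). With all libraries thinned to the smallest total the log2 fold change was 1.65, so that it was as large at equal depth.

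Serpine2 (ENSMUSG00000026249), the gene of protease nexin-1, had the most reads of the 5 and the highest level per exon length. Its place is the minus strand of chromosome 1, from 79794317 to 79858665. The mock libraries held 27066, 14432 and 11815 reads and the p140Cap libraries 3902, 4010 and 3535 reads, or 353.7, 362.9 and 354.8 CPM against 257.2, 273.1 and 259.6 CPM. The spread within each group was far smaller than the gap between them. Its level fell from 357 ± 5.01 CPM to 263 ± 8.59 CPM (SD, n = 3 libraries each), with a log2 fold change of -0.44 (SE 0.05, edgeR adjusted p = 2.9e-07).

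Serpinb2 (ENSMUSG00000062345), the gene of PAI-2, was practically silent. It lies on chromosome 1, from 107500892 to 107525600 on the plus strand, and had 1 read in mock replicate 1 and 0 reads in each of the 5 other libraries. Over the pooled p140Cap libraries a count of 0 allows up to 0.069 CPM (3 reads, for counting error), and 3 reads over the pooled mock libraries would be 0.0201 CPM. In the GENCODE vM39 annotation, though not in the RefSeq positions given here, Serpinb2 overlaps Serpinb10 on the same strand, and Serpinb10 has no row of its own in the counts. Which of both genes the single read came from is uncertain. No difference was detectable at this depth.

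**Figure D1:**
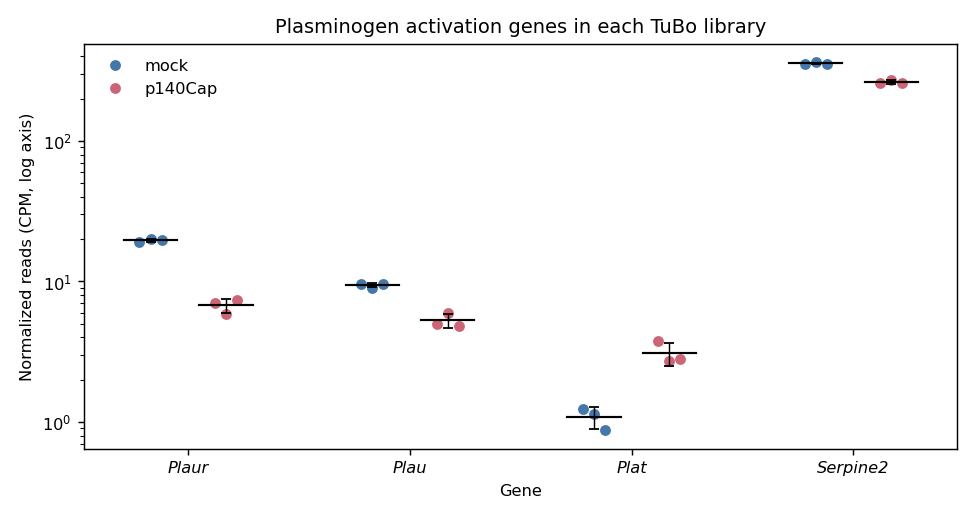
Normalized reads (CPM, log axis) of Plaur, Plau, Plat and Serpine2 in the 3 mock and 3 p140Cap libraries, with a bar for the mean and error bars for the SD (n = 3). Plaur, Plau and Serpine2 lie lower and Plat higher in p140Cap libraries, and no gene drawn has overlapping groups. Serpinb2 is not drawn, as it had 1 read in all.

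The groups did not overlap for Plaur, Plau, Plat or Serpine2, as for 73.4% of all genes tested, with 37.2% of all genes tested wholly lower and 36.3% wholly higher in p140Cap libraries. The smallest p that an exact permutation test could give with these 6 libraries is 0.1. Plau and Serpine2 are each overlapped by an annotated long non-coding RNA gene on the other strand (Gm63115 and Gm39666). Neither has a row in the counts. The study's methods name a stranded library preparation, but use of the strand in counting is not stated there.

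To compare genes with each other, levels were divided by the length of each gene's merged exons (RPKM, CPM per kilobase of exon). In mock cells Serpine2 stood at 29.0 ± 0.407 RPKM, Plaur at 4.90 ± 0.148, Plau at 3.66 ± 0.126 and Plat at 0.155 ± 0.0273 RPKM (SD, n = 3). In p140Cap cells Serpine2 stood at 21.4 ± 0.698 RPKM, followed by Plau at 2.06 ± 0.242, Plaur at 1.69 ± 0.202 and Plat at 0.443 ± 0.0829 RPKM (SD, n = 3). The p140Cap ranges of ligand and receptor nearly met, with Plau from 1.89 to 2.34 RPKM and Plaur from 1.47 to 1.86 RPKM, and their order there depends on the exon lengths, since Plaur had the higher mean CPM. Serpinb2 came last in both groups. Merged exons include those of rare isoforms, so these levels are approximate.

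Within single libraries, the ratio of Plaur to Plau per exon length was 1.27, 1.43 and 1.32 in mock cells and 0.896, 0.627 and 0.983 in p140Cap cells. Without exon lengths, a scale added after seeing the data, it was 1.98, 2.23 and 2.05 in mock and 1.39, 0.977 and 1.53 in p140Cap cells. The ratio was lower in every p140Cap library than in every mock library on both scales, but whether it lay above or below 1 in p140Cap cells depends on the lengths. Plau made up 95.5%, 95.6% and 96.8% of the summed level of both activators in mock cells and 78.4%, 85.7% and 82.5% in p140Cap cells. Without exon lengths these shares were 88.5%, 88.9% and 91.7% in mock and 57.1%, 68.8% and 63.5% in p140Cap cells. On both scales Plau was the larger part in all 6 libraries, and its share was lower in every p140Cap library than in every mock library. The ratio of Serpine2 to both activators together was 7.34, 8.01 and 7.47 in mock and 8.39, 8.14 and 9.21 in p140Cap cells, and without exon lengths 32.6, 35.7 and 34.0 in mock and 29.3, 31.3 and 34.0 in p140Cap cells. No direction is read from this ratio, which was higher in p140Cap libraries on the first scale and lower on average, with overlapping groups, on the second. No test was made on these ratios, since they combine the genes chosen.

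**Figure D2:**
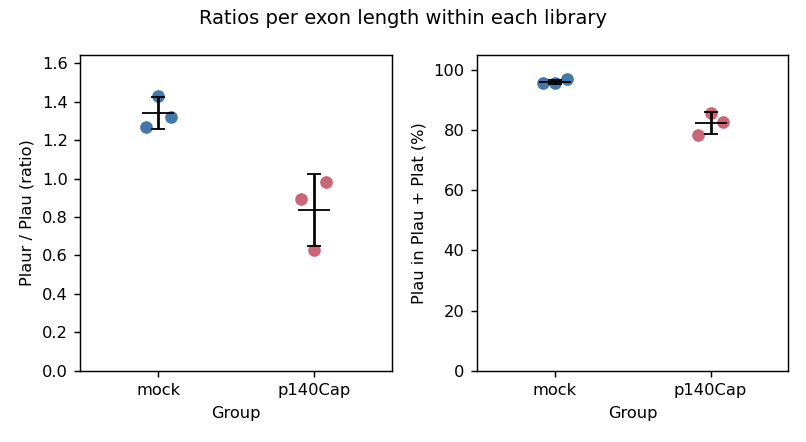
Levels per exon length within each library, as the ratio of Plaur to Plau and as the share of Plau in the sum of Plau and Plat (%), with points for the libraries of each group and bars for the mean and SD (n = 3). The ratio is 1.27 to 1.43 in mock and 0.627 to 0.983 in p140Cap libraries, and the share is 95.5% to 96.8% in mock and 78.4% to 85.7% in p140Cap libraries.

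The rest of the pathway was described with 7 lists by role, 53 genes in all, written with earlier results of these data known. Of these, 27 could be tested, 8 were lower (Plaur, which was chosen for this, among them) and 12 were higher at an adjusted p under 0.05 (edgeR), and 7 were not called. The median log2 fold change of the 27 was 0.08, against 0.00 over all genes tested. Since 35.9% of all genes tested were called lower and 35.2% higher, and no test of the lists was made, the counts do not set the pathway apart.

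Plasminogen itself (Plg) had 2, 0 and 1 reads in the mock and 0 reads in the p140Cap libraries, at the limit of detection in both groups. The contact protease genes F12 and Klkb1 were likewise not tested. Among the inhibitors of the activators, Serpina5 was at 0 reads, and Serpini1, for neuroserpin, had 8 reads in mock and 1 in p140Cap cells.

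Of the 4 inhibitors of plasmin and fibrin breakdown none could be tested. Serpinf2, for α2-antiplasmin, had 36 reads in mock and 10 in p140Cap cells, a ratio of p140Cap to mock of 0.956 (exact 95% interval 0.423 to 1.97, which covers counting error only). A2m was at 0 reads, Pzp had 7 reads in mock and 2 in p140Cap cells, and Cpb2 had 1 read in each group.

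Among 16 genes of the receptor and its membrane and matrix partners, 10 were tested. Of these, 3 were lower (Plaur, which was chosen for this, among them), 3 were higher and 4 were not called. Over all genes tested 35.9% were lower and 35.2% higher, and no test of the list was made. Cav1, for caveolin-1, a scaffold protein of caveolae known to associate with uPAR, fell from 48.6 ± 2.17 CPM to 19.8 ± 1.52 CPM (SD, n = 3), at a log2 difference of -1.30 (SE 0.07, edgeR adjusted p = 6.41e-11). Its values were 49.2, 50.4 and 46.2 CPM in mock and 19.9, 18.3 and 21.3 CPM in p140Cap libraries. Lrp1, the endocytic receptor that clears complexes of uPA, inhibitor and uPAR, rose. It was at 8.56, 5.73 and 8.02 CPM in mock and 15.6, 20.8 and 16.5 CPM in p140Cap libraries, a log2 fold change of 1.22 (SE 0.13, edgeR adjusted p = 3.89e-07). The groups did not overlap for Cav1 or for Lrp1, as for 73.4% of all genes tested.

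Integrin α3 (Itga3), a lateral partner of uPAR, fell from 463 ± 25.7 CPM to 332 ± 20.4 CPM (SD, n = 3), at a log2 difference of -0.48 (SE 0.06, edgeR adjusted p = 9.04e-07). Itgav, the αv chain of vitronectin receptors, rose by a log2 fold change of 0.47 (SE 0.05, edgeR adjusted p = 3.84e-07). Itgb1 was called higher at a log2 fold change of 0.11 (SE 0.05, edgeR adjusted p = 0.0334), a call lost under 6 of 13 alternatives, among them leaving out mock replicate 1 (adjusted p = 0.093), mock replicate 3 (0.087), p140Cap replicate 1 (0.163) or p140Cap replicate 3 (0.1). Itgb3, Itgb5, Igf2r and Egfr were not called, with log2 fold changes between 0.02 and 0.17. Vtn, for vitronectin, the matrix ligand of uPAR, was at 0 reads, and Itga5 had 4 reads in all.

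All 4 plasminogen-binding surface proteins were tested. Plgrkt, a membrane receptor for plasminogen, fell from 40.6 ± 3.13 CPM to 30.7 ± 3.33 CPM (SD, n = 3), at a log2 difference of -0.40 (SE 0.08, edgeR adjusted p = 0.00018). Plgrkt lies on chromosome 19, where the 413 tested genes had a median log2 fold change of -0.33, and the part of this in its value was not tested. Eno1, for α-enolase, a glycolytic enzyme that also binds plasminogen, rose by a log2 fold change of 0.30 (SE 0.05, edgeR adjusted p = 7.68e-05). S100a10 and Anxa2, whose proteins form a heterotetramer that binds tPA and plasminogen, had log2 fold changes of -0.01 (SE 0.06) and 0.06 (SE 0.05) and were not called. Both were abundant, with 202 ± 17.2 and 729 ± 18.1 CPM in p140Cap cells (SD, n = 3).

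The 3 tested genes of proteases that can cut pro-urokinase into its active form all rose, where 35.2% of all genes tested did, and no test of the list was made. Ctsb, for cathepsin B, was at 492.2, 520.9 and 510.8 CPM in mock and 785.6, 799.9 and 802.4 CPM in p140Cap libraries. Its log2 fold change was 0.65 (SE 0.05, edgeR adjusted p = 2.38e-09). Ctsl, for cathepsin L, had a log2 fold change of 0.37 (SE 0.05, edgeR adjusted p = 1.8e-06), and St14, for the membrane protease matriptase, 0.26 (SE 0.06, edgeR adjusted p = 0.00114). Hpn, for hepsin, had 5 reads in mock and 3 in p140Cap cells.

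Of 15 factors, receptors and proteases that plasmin or its activators process, 6 were tested, 2 were lower, 3 were higher and Mmp2 was not called. Among all genes tested 35.9% were lower and 35.2% higher, so these counts do not set the list apart, and no test of it was made. Fn1, for the matrix protein fibronectin, was nearly absent from p140Cap cells, with 483, 195 and 173 reads in mock and 1, 2 and 2 reads in p140Cap libraries. Its level in mock cells was 49.5 times higher over the pooled reads (exact 95% interval 21.1 to 153, for counting error), and it fell at an adjusted p of 2.03e-10 (edgeR). Fn1 was not tested where each library had to hold 10 reads or more. Pdgfd and Pdgfc, for latent growth factors that are cut by uPA and by tPA respectively, rose by log2 fold changes of 1.16 (SE 0.09, edgeR adjusted p = 5.38e-09) and 0.66 (SE 0.05, edgeR adjusted p = 4.77e-09). Pdgfd was at 6.19, 6.36 and 5.68 CPM in mock and 14.2, 13.1 and 13.4 CPM in p140Cap libraries.

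Mmp14, for a membrane matrix metalloproteinase, rose by a log2 fold change of 0.56 (SE 0.07, edgeR adjusted p = 1.13e-06). F2rl1, for a protease-activated receptor, fell by 0.20 on the log2 scale (SE 0.07, edgeR adjusted p = 0.0151), a call lost without mock replicate 1 (adjusted p = 0.0943), without p140Cap replicate 3 (0.101) and in thinned libraries (0.0622, edgeR). Mmp9 had 27 reads in mock and 0 in p140Cap cells, with mock replicates 1 to 3 at 15, 10 and 2. With 3 reads over the group as the floor, its pooled level was at least 2.62-fold lower in p140Cap cells. That bound holds for the pooled reads only, as mock replicate 3, at 0.0601 CPM, was under the pooled p140Cap floor of 0.069 CPM. Single p140Cap libraries had floors of 0.198 to 0.22 CPM, above mock replicate 1 (0.196 CPM) as well. F2r, for the thrombin receptor, had 60 and 6 reads, a level 2.91 times higher in mock cells (exact 95% interval 1.26 to 8.23, for counting error). Mmp9 and F2r were named after their values were seen, for which the bound and the interval make no allowance. Hgf and Fga were at 0 reads.

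**Figure D3:**
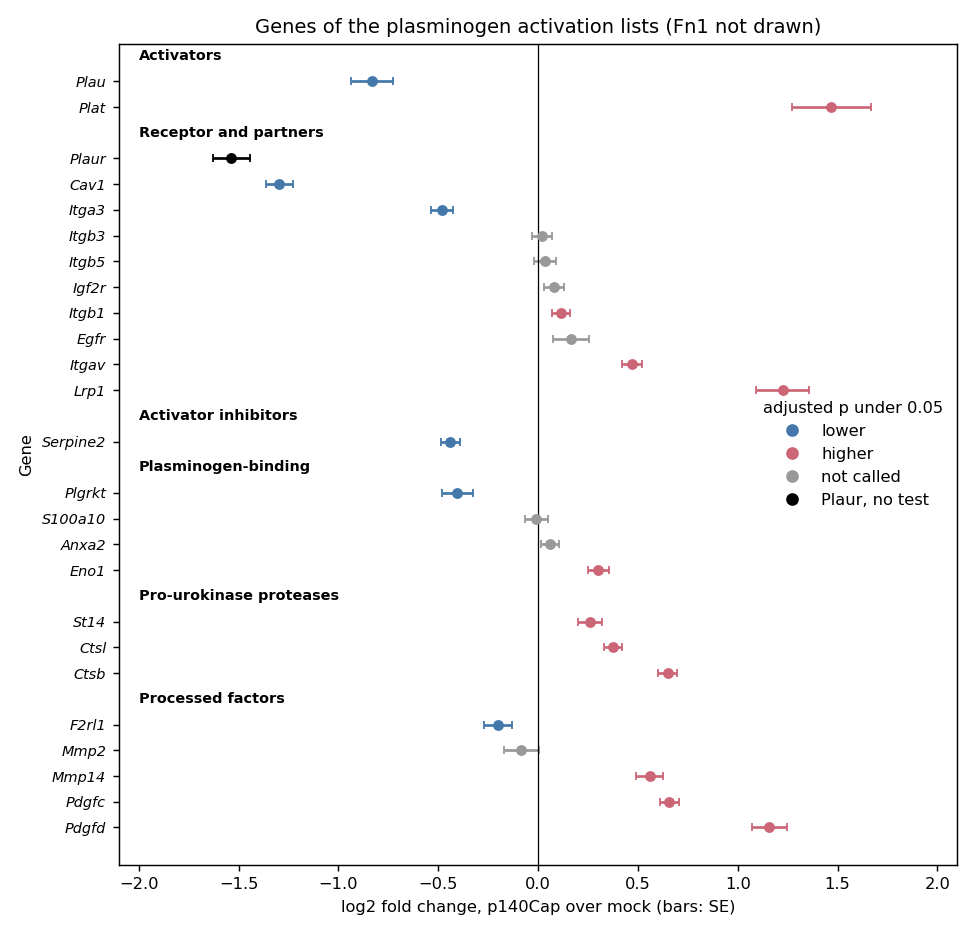
Log2 fold changes of p140Cap over mock with SE for tested genes of 6 role lists, coloured by the call at an adjusted p under 0.05 (edgeR), with Plaur in black as a description. Plaur and Cav1 lie lowest and Plat, Lrp1 and Pdgfd highest. Fn1 is left out because its fold rests on 5 reads in p140Cap cells.

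uPAR belongs to the Ly6/uPAR family, small proteins with a fold held by disulfide bonds. Of 21 other family genes on the list, 18 had too few reads for a test. Lypd3, for a surface protein of the family, rose from 0.549, 0.679 and 0.481 CPM in mock to 1.71, 1.77 and 1.54 CPM in p140Cap libraries (log2 fold change 1.55, SE 0.24, edgeR adjusted p = 2.02e-05). Cd59a, for an inhibitor of complement lysis, rose by a log2 fold change of 0.45 (SE 0.07, edgeR adjusted p = 3.58e-05). Cd177, known as a neutrophil antigen, fell from 58.3 ± 1.95 CPM to 41.5 ± 2.76 CPM (SD, n = 3), at a log2 difference of -0.49 (SE 0.06, edgeR adjusted p = 1.24e-06). Lypd5 had 2 reads in mock and 10 in p140Cap cells, a ratio of p140Cap to mock of 17.2 (exact 95% interval 3.67 to 162, for counting error). Lypd5 was not tested and was named after its values were seen, for which the interval makes no allowance. Ly6a, which encodes the stem cell antigen Sca-1, had 2 reads in all. The paper, however, measured Sca-1 protein on TuBo cells by flow cytometry and reported fewer positive cells with p140Cap. Why the gene had so few reads was not tested, so absence of Sca-1 is not read from this count.

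Among 15 related serpins, 5 were tested. Serpinb8 rose by a log2 fold change of 0.66 (SE 0.08, edgeR adjusted p = 1.31e-06), while Serpinb6a fell by 0.38 on the log2 scale (SE 0.06, edgeR adjusted p = 1.95e-05). Serpinb5, for maspin, rose by 0.19 (SE 0.06, edgeR adjusted p = 0.015), and Serpinb9, for the inhibitor of granzyme B, fell by 0.31 (SE 0.12, edgeR adjusted p = 0.0334). The calls of Serpinb5 and Serpinb9 were lost under 3 and 8 of 13 alternatives. Leaving out mock replicate 1 (adjusted p = 0.0565), p140Cap replicate 1 (0.0626) or p140Cap replicate 3 (0.131) ended that of Serpinb5. Leaving out mock replicate 2 (0.0506), mock replicate 3 (0.0752), p140Cap replicate 1 (0.0709) or p140Cap replicate 3 (0.125) ended that of Serpinb9. Serpinh1, for a collagen chaperone, was not called (log2 fold change -0.07, SE 0.06).

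Of 14 transcription factor genes known to act at the Plau or Plaur promoter, all were tested, 3 were lower, 9 were higher and 2, Jun and Fosl1, were not called, where 35.9% of all genes tested were lower and 35.2% higher. No test of this list was made, and its median log2 fold change was 0.23. Fos rose from 7.44, 7.17 and 7.36 CPM in mock to 21.9, 20.2 and 19.5 CPM in p140Cap libraries (log2 fold change 1.49, SE 0.08, edgeR adjusted p = 6.94e-11). Fosl2 rose by a log2 fold change of 0.56 (SE 0.06, edgeR adjusted p = 1.31e-07), Ets1 by 0.49 (SE 0.10, edgeR adjusted p = 0.000372) and Junb by 0.48 (SE 0.07, edgeR adjusted p = 7.2e-06). Ets2, Sp1 and Ctnnb1, which encodes β-Catenin, rose by 0.31, 0.24 and 0.23 on the log2 scale, with adjusted p of 4.1e-05, 0.00046 and 0.000257 (edgeR). Jun, with a log2 fold change of 0.02 (SE 0.08), and Fosl1, with -0.17 (SE 0.28), did not pass the test. Rela, Nfkb1 and Tcf7l2 fell by 0.21, 0.23 and 0.29 on the log2 scale, with adjusted p of 0.00175, 0.000702 and 0.00126 (edgeR). Rela, Tcf7l2 and Fosl1 lie on chromosome 19, and the part of its lower median in their values was not tested. Jund and Lef1 were called higher, at log2 fold changes of 0.21 and 0.30, but lost the call under 3 and 6 of 13 alternatives. For Jund these were leaving out mock replicate 1 (adjusted p = 0.101), mock replicate 2 (0.0575) or p140Cap replicate 2 (0.0993, edgeR). For Lef1 they included leaving out mock replicate 1 (adjusted p = 0.0663), mock replicate 3 (0.083), p140Cap replicate 1 (0.159) or p140Cap replicate 3 (0.0665, edgeR).

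Most tested genes next to Plaur were higher or not called. Of 23 protein-coding genes within 250 kb of its ends in RefSeq, 14 were tested, 1 was lower, 8 were higher and 5 were not called (edgeR), with a median log2 fold change of 0.26. Over all genes tested 35.9% were lower and 35.2% higher, and the difference from these 14 genes was not tested. The lower gene was Zfp428 at -0.82 (SE 0.13, edgeR adjusted p = 3.26e-05), 28.6 kb away, and the nearest tested gene, Cadm4, lies 6.1 kb away and rose by 0.23 (SE 0.08, edgeR adjusted p = 0.0158). Lypd3, a member of the Ly6/uPAR family that rose, lies 160.6 kb from Plaur. Around Plau, 10 neighbours were tested and had log2 fold changes between -0.56 and 0.36, less than the change of Plau itself. Around Plat, 7 were tested with values between -0.32 and 0.73, below that of Plat. Around Serpine2, Wdfy1 rose by 0.83 (SE 0.05, edgeR adjusted p = 1.54e-10) and Mrpl44 fell by 0.23 on the log2 scale (SE 0.06, edgeR adjusted p = 0.0026), and Ap1s3 was not called. Around Serpinb2 only Serpinb8 had enough reads.

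**Figure D4:**
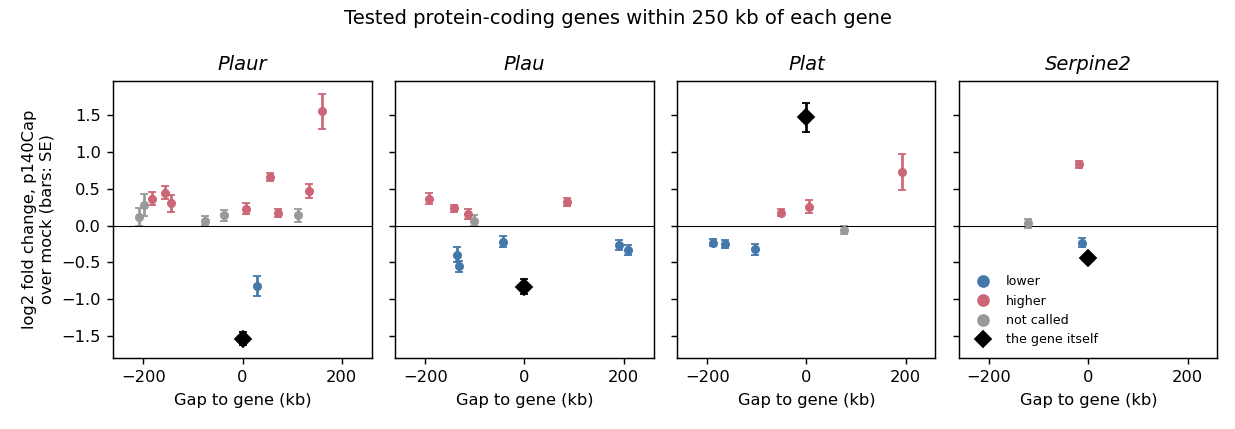
Log2 fold changes (p140Cap over mock, bars SE) of tested protein-coding genes against their gap in kb to the ends of Plaur, Plau, Plat and Serpine2, each drawn as a black diamond at 0, with colours for the call at an adjusted p under 0.05 (edgeR). The neighbours of Plaur lie between -0.82 and 1.55, all above Plaur, which was chosen for its fall.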

How the data were processed

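RNA from 3 mock and 3 p140Cap libraries of TuBo cells was sequenced on an Illumina NextSeq 500 after stranded TruSeq library preparation. The authors deposited raw counts of reads for 21960 genes, 1 column per library. Total reads ranged from 13770385 to 75506562. The submitters' processing notes name STAR 2.5, RSEM 0.1.1 and mm10 without their roles, while the paper names docker4seq and GRCm39. If RSEM made the counts, they are rounded estimates in which reads may be split between similar genes.

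Counts were analysed in R 4.3.3 with edgeR 4.0.16 (TMM factors, filterByExpr by group, quasi-likelihood test, Benjamini-Hochberg adjustment over 11800 genes, threshold 0.05). The SE was obtained from the fold change and the F statistic. RPKM used exon lengths of GENCODE vM39. Positions and neighbours came from RefSeq for GRCm38.p6. Intervals for few reads are 95% exact binomial intervals on pooled reads, and cover counting error only. On simulated counts edgeR recovered 97.4% of 196 changed genes among 11720, and 7.28% of its calls were unchanged genes. Libraries of a group differed by more than sampling noise (mean chi-square per gene 1.75 to 10.7), so none was taken as a copy.

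The members, lists and tests were chosen with earlier results of these data known. Named genes are the members, in each list at most 4 called genes by size of change, Plg and Lrp1, the 5 genes most like Plaur, and tested neighbours within 250 kb. A gene of the rule is counted in the list totals but not reported here. Other listed genes were named after their values were seen. Alternatives were DESeq2 1.42.0, RLE factors, no filter, a minimum of 10 reads per library, limma-voom (limma 3.58.1), a replicate block, thinning, and leaving out each library.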

Additional observations from a re-analysis of the deposited data

How the results depend on the processing

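The log2 fold changes of Plaur, Plau, Plat and Serpine2 and the counts of called genes were recomputed under 13 alternatives. Plau, Plat and Serpine2 kept their direction and their call in all 13, with adjusted p of at most 4.63e-05, 8.28e-05 and 8.72e-06 (edgeR, DESeq2 or limma). Plaur stayed between -1.61 and -1.45, Plau between -0.93 and -0.78, Plat between 1.30 and 1.65, and Serpine2 between -0.47 and -0.42. Of the pathway genes, 7 to 10 were lower and 10 to 12 higher, and over all genes 3951 to 4679 were lower and 3854 to 4152 higher. The replicate number as a replicate block gave -1.54 for Plaur, -0.83 for Plau, 1.51 for Plat and -0.44 for Serpine2, and ended the calls of Itgb1 (adjusted p = 0.0695) and Serpinb9 (0.0547, edgeR). Same-numbered libraries did not deviate together (correlations across genes -0.03, -0.11 and -0.06), so the numbers were not taken to pair the samples. Depth limits Serpinb2, Plg, Mmp9 and the other genes with few reads, which could not be tested.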

Other observations

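Over the 6 libraries, the 5 genes most like Plaur, by the root mean square difference of log2 CPM centred on the mock mean, were Tmed5 (0.06), Orc2 (0.06), Cytl1 (0.06), Hells (0.07) and Fanca (0.07), against a median of 1.10 over all genes tested. A total of 16 of 11800 genes lay within 0.1 of Plaur by this measure, into which the difference between the groups enters. Orc2 encodes a subunit of the origin recognition complex, Hells a chromatin remodeler and Fanca a protein of the Fanconi anemia core complex, while Tmed5 belongs to the p24 cargo receptors and Cytl1 encodes a secreted cytokine-like protein. Orc2 was at 54.5 ± 4.33 CPM in mock and 19.2 ± 2.34 CPM in p140Cap cells, and Cytl1 at 101.1 ± 4.98 CPM and 36.0 ± 2.34 CPM (SD, n = 3 libraries each). Of the 5, Hells lies on chromosome 19, where many genes were lower. These genes were picked for their likeness on the same samples, so their values are a description with no test.

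Fgg, for the γ chain of fibrinogen, a plasmin substrate of liver origin, had 2 reads in mock and 9 in p140Cap cells, a level 15.5 times higher in p140Cap cells (exact 95% interval 3.21 to 147, for counting error). Fga was at 0 reads, and Fgb had 5 reads in mock and 3 in p140Cap cells. Mrc2, for a collagen receptor that associates with uPAR, had 48 and 7 reads, a level 1.99 times higher in mock cells with an interval of 0.896 to 5.22.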
